A study of Mus musculus with 6 samples.

Results

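Gpnmb, the genes of the MiT/TFE transcription factors and the genes of their folliculin regulators were followed through the nuclei of mouse brains injected with lysophosphatidic acid (LPA) or with vehicle. These were 8 of the 32285 genes in the count tables, found there by symbol: Gpnmb, the factors Mitf, Tfeb, Tfe3 and Tfec, and the regulators Flcn, Fnip1 and Fnip2. The genes were chosen from values of LPA against vehicle libraries, by UMIs per library in microglial states and other cell types, so their values in that contrast and all differences between immune states are given as descriptions with no test.

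The libraries were 3 LPA and 3 vehicle libraries of single-nucleus RNA-seq, numbered 1 to 3 in each group, from a mouse model of post-hemorrhagic hydrocephalus, the swelling of the ventricles that can follow a bleed in the newborn brain. The study injected C57BL/6 S-56 pups at postnatal day 7 with 5 µl into the right lateral ventricle, either LPA in a carrier with bovine serum albumin or the carrier alone, and collected brains without olfactory bulbs and cerebellum at postnatal day 15. Nuclei were sorted as negative for the neuronal protein NeuN, yet many nuclei carried neuronal transcripts. The libraries held 48852970 to 65688644 unique molecular identifiers (UMIs, 1 per captured RNA molecule) over all barcodes, and 7579 to 11745 nuclei per library passed the filters. By Xist and genes of the Y chromosome, LPA 1, vehicle 1 and vehicle 3 came from male mice and the others from female mice. Of 61635 distinct barcodes, 708 occurred in more than 1 library and 235 in all 6, and leaving these nuclei out changed no call of the 8 genes.

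Nuclei were grouped into clusters without these 8 genes, and each cluster was named after the cell type whose marker genes it carried, so "microglia" below stands for microglia-like nuclei, and likewise for every other name. Summed over their nuclei, the activated microglia had reads from all 12 of their markers, among them Spp1, Itgax and Lpl. The summed level was 2926 CPM (counts of UMIs scaled to a fixed total for the same nuclei) against 496 CPM in macrophages, the next highest type. Activated microglia also carried the 8 macrophage markers at 3032 CPM, above the level of their own list, against 13263 CPM in macrophages. The homeostatic microglia carried all 8 of theirs, among them P2ry12 and Tmem119, at 4335 CPM against 1007 CPM in activated microglia. The immune class, which joins both states with macrophages and immune nuclei left without a name, held 447, 603 and 469 nuclei in the LPA libraries and 148, 406 and 148 in the vehicle libraries. Activated microglia made up 103, 165 and 164 of these in the LPA libraries and 0, 0 and 1 in the vehicle libraries, so a level of the whole immune class also follows the share of its states.

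MiT/TFE factors are basic helix-loop-helix proteins that bind the letters CACGTG in promoters and switch on genes of lysosomes and autophagy. Tfeb and Tfe3 are held in the cytoplasm when phosphorylated by mTORC1, a kinase complex that Rag GTPases bring to the lysosome when nutrients are plentiful. Folliculin, encoded by Flcn, works with its partner proteins FNIP1 and FNIP2 as the activator of GTP hydrolysis by RagC and RagD, which directs mTORC1 towards both factors. Gpnmb encodes a glycoprotein of endosomes and lysosomes, is known as a target of the family in melanocytes, osteoclasts and macrophages, and marks microglia that handle lipid or debris.

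The 8 genes lie on 5 chromosomes of GRCm38 in the GENCODE M21 annotation. Gpnmb (chr6:49036546-49070929, plus strand), Mitf (chr6:97807052-98021349, plus) and Tfec (chr6:16833373-16898441, minus) share a chromosome, as do Flcn (chr11:59791408-59810016, minus) and Fnip1 (chr11:54438199-54518235, plus). Tfeb (chr17:47737030-47792419, plus), Tfe3 (chrX:7762560-7775202, plus) and Fnip2 (chr3:79455974-79567796, minus) lie apart, and Tfe3 is thus X-linked.

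Promoter windows from 250 bases before to 50 bases after each RefSeq start (GRCm38.p6) were searched on both strands for CACGTG, for its extension TCACGTGA and for TCATGTG, a motif linked to Mitf in pigment cells. These occur in 7.15%, 0.974% and 3.77% of all 32851 windows, and CACGTG also counts every TCACGTGA. Of the 13 windows of the 8 genes, 1 held any of these letters, that of Fnip1, with CACGTG 75 bases before the start. The windows of Fnip1 and Fnip2 also share the run GTCATATGAC, found by comparing them and present in 14 of all 32851 windows (0.0426%), and the inner TCATATGA occurs in 0.323% of windows. It begins 16 bases after the start in Fnip1 and 106 bases before it in Fnip2. The windows of Fnip1 and Fnip2 are printed because they hold these letters and were chosen for them, and that of Gpnmb because the gene had reads in the immune nuclei of LPA libraries alone. Capitals mark CACGTG and the shared run, and the window of Gpnmb has neither.
Gpnmb, chr6:49036268-49036567, plus strand: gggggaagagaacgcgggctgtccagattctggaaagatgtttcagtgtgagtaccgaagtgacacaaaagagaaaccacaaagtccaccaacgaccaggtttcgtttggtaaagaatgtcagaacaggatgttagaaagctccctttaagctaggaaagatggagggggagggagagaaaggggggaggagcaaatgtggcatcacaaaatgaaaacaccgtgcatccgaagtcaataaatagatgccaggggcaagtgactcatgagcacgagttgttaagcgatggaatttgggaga
Fnip1, chr11:54437929-54438228, plus strand: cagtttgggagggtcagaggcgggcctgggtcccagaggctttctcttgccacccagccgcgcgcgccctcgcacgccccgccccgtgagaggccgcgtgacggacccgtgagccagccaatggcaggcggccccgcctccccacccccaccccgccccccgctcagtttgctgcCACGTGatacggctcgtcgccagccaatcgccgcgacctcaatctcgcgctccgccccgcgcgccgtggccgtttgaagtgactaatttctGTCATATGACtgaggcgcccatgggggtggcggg
Fnip2, chr3:79567630-79567929, minus strand: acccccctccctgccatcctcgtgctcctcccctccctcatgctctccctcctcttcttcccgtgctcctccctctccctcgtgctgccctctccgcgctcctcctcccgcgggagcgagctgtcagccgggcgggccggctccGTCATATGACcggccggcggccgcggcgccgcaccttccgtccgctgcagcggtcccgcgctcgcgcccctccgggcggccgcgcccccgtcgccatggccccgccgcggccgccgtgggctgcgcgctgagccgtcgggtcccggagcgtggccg
A match of letters is a description of the window and says nothing on binding.

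Gpnmb was read in the immune nuclei of every LPA library and of no vehicle library. Immune nuclei held 311, 616 and 511 Gpnmb UMIs in LPA 1, 2 and 3, which is 303, 506 and 503 CPM, and 0 UMIs in each vehicle library. Against a floor of 3 counts over the 3 vehicle libraries together, the level was at least 178-fold higher in LPA. The UMIs lay mostly in activated microglia, with 296, 581 and 459 UMIs, or 1240.5, 1553 and 1285 CPM. Homeostatic microglia of the same libraries held 1, 2 and 11 UMIs and macrophages held 0, 0 and 10, so LPA 3 gave most of the reads in these states.

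Per nucleus the contrast between states was as wide. Of 432 activated nuclei in LPA libraries (median 2160 UMIs), 63.4% had at least 1 Gpnmb UMI, against 1.12% of 896 homeostatic nuclei (median 1797 UMIs). After each nucleus was thinned to 1000 UMIs, the shares were 47.5% of 427 activated nuclei (exact 95% binomial interval 42.7 to 52.4) and 0.698% of 860 homeostatic nuclei (0.256 to 1.51). In neurons, set beside them for comparison, 0.911% of LPA nuclei had a Gpnmb UMI (median 6246 UMIs) and 0.180% of 6128 did after thinning. Neurons also held 22 of the 78 Gpnmb UMIs of the vehicle libraries, and whether they express the gene was not tested. The interval of the neuronal share, 0.0896 to 0.321, overlapped that of homeostatic nuclei at its edge, which does not show that the shares are equal. Of the 14 homeostatic UMIs, 12 lay in 1 sub-cluster, described below as sub-cluster 3. The share is thus not read as expression across homeostatic nuclei. In homeostatic nuclei of vehicle libraries 0 of 498 thinned nuclei had a Gpnmb UMI, which allows a share of up to 0.602% by the limit of 3 counts. These intervals cover counting error only.

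Over all nuclei, the LPA libraries held 2180 Gpnmb UMIs, of which 1336 (61.3%) were in activated microglia and 404 (18.5%) in clusters that stayed unnamed. The vehicle libraries held 78 in all, none of them immune. The single activated nucleus of a vehicle library, in vehicle 3, had 4929 UMIs and none from Gpnmb.

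Mitf, the factor that names the family and that governs pigment cells and osteoclasts, was present in immune nuclei of both groups. It stood at 690.4, 776 and 935 CPM in LPA 1, 2 and 3 and at 334, 322 and 336 CPM in vehicle 1, 2 and 3. The vehicle libraries lay close together and every LPA library was above them, with a log2 fold-change of 1.29 (edgeR, SE 0.14). Within homeostatic microglia the levels were 571.5, 489.5 and 677 CPM against 307, 254 and 262 CPM, a log2 fold-change of 1.08 (SE 0.14), which was 0.28 (SE 0.15) once a sub-cluster that came mostly from LPA libraries, described below as sub-cluster 3, was left out. In activated microglia of the LPA libraries Mitf reached 1203, 1347 and 1456 CPM. Macrophages had 638, 635 and 533 CPM in LPA and 451, 615 and 579.5 CPM in vehicle libraries, where the groups overlapped.

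Tfeb, the factor best known for switching on lysosomal genes, differed less. Immune levels were 116, 113 and 130.01 CPM in LPA and 75.04, 96.7 and 63.2 CPM in vehicle libraries, from 119, 138 and 132 against 20, 67 and 16 UMIs. The groups did not overlap, and the log2 fold-change was 0.53 (SE 0.18). In homeostatic microglia alone the log2 fold-change was 0.11 (SE 0.22), with 107.5, 99.1 and 95.8 CPM against 84.3, 98.8 and 82.0 CPM.

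Tfe3, which acts beside Tfeb on the same kind of genes, overlapped between the groups. Its immune levels were 100.3, 103 and 72.9 CPM in LPA and 82.5, 83.7 and 71.1 CPM in vehicle libraries, a log2 fold-change of 0.21 (SE 0.19). Tfe3 was also the only gene of the 8 whose level was lower in activated than in homeostatic microglia in all 3 LPA libraries, with 113, 98.9 and 81.2 CPM against 119, 116 and 82.7 CPM. The LPA 3 pair of values rests on 29 and 38 UMIs.

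Tfec, a member of the family found mainly in myeloid cells, depended on which immune nuclei were summed. Over all immune nuclei it gave 35, 61 and 34 UMIs in LPA and 14, 14 and 12 in vehicle libraries, or 34.1, 50.1 and 33.5 against 52.5, 20.2 and 47.4 CPM. The groups overlapped, with a log2 fold-change of 0.23 (SE 0.32), which turned to -0.01 without LPA 2 and to -0.32 without vehicle 2. In microglia alone, with macrophages set aside, the log2 fold-change was 3.31 (SE 0.56). Macrophages carried Tfec at 85.0, 108 and 31.3 CPM in LPA and 186, 104 and 145 CPM in vehicle libraries, and activated microglia carried it at 88.0, 104 and 70.0 CPM. Homeostatic microglia had 5, 11 and 7 UMIs in LPA and 1, 1 and 0 in vehicle libraries.

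Among the regulators, Flcn stood at 119.8, 150.2 and 124 CPM in immune nuclei of LPA 1, 2 and 3 and at 93.8, 63.5 and 51.3 CPM in vehicle 1, 2 and 3. The groups did not overlap, and the log2 fold-change was 0.96 (SE 0.20), from 123, 183 and 126 against 25, 44 and 13 UMIs. In homeostatic microglia the log2 fold-change was 0.59 (SE 0.24), and 0.15 (SE 0.28) without sub-cluster 3, and activated microglia had 209, 217 and 185 CPM.

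Fnip1 had immune levels of 418, 467 and 492 CPM in LPA and 240.1, 296 and 201 CPM in vehicle libraries, a log2 fold-change of 0.86 (SE 0.14). In homeostatic microglia the values were 328, 306 and 357 against 229, 256 and 148 CPM, a log2 fold-change of 0.52 (SE 0.15), and of 0.26 (SE 0.16) without sub-cluster 3. Activated microglia had 683, 799 and 759 CPM.

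Fnip2 had the largest log2 fold-change of the 7 genes with vehicle reads, 2.07 (SE 0.18). Immune levels were 579, 764 and 857 CPM in LPA and 236, 162 and 138 CPM in vehicle libraries, from 595, 931 and 870 against 63, 112 and 35 UMIs. In homeostatic microglia they were 289, 269.9 and 435 against 235, 139 and 90.1 CPM, a log2 fold-change of 1.08 (SE 0.18), and of 0.20 (SE 0.20) without sub-cluster 3. Activated microglia reached 1601, 1815 and 1627 CPM. In macrophages Fnip2 had 453, 312 and 391.7 CPM in LPA and 266, 260.0 and 241 CPM in vehicle libraries, with 25 to 32 UMIs in each LPA library and 10 to 30 in each vehicle library.

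In all, 6 of the 8 genes (all but Tfe3 and Tfec) had every LPA library above every vehicle library in immune nuclei. Of the 10257 genes measured in these nuclei 11.5% did so, and nothing is read from the count of 6, since this contrast chose the genes.

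**Figure D1:**
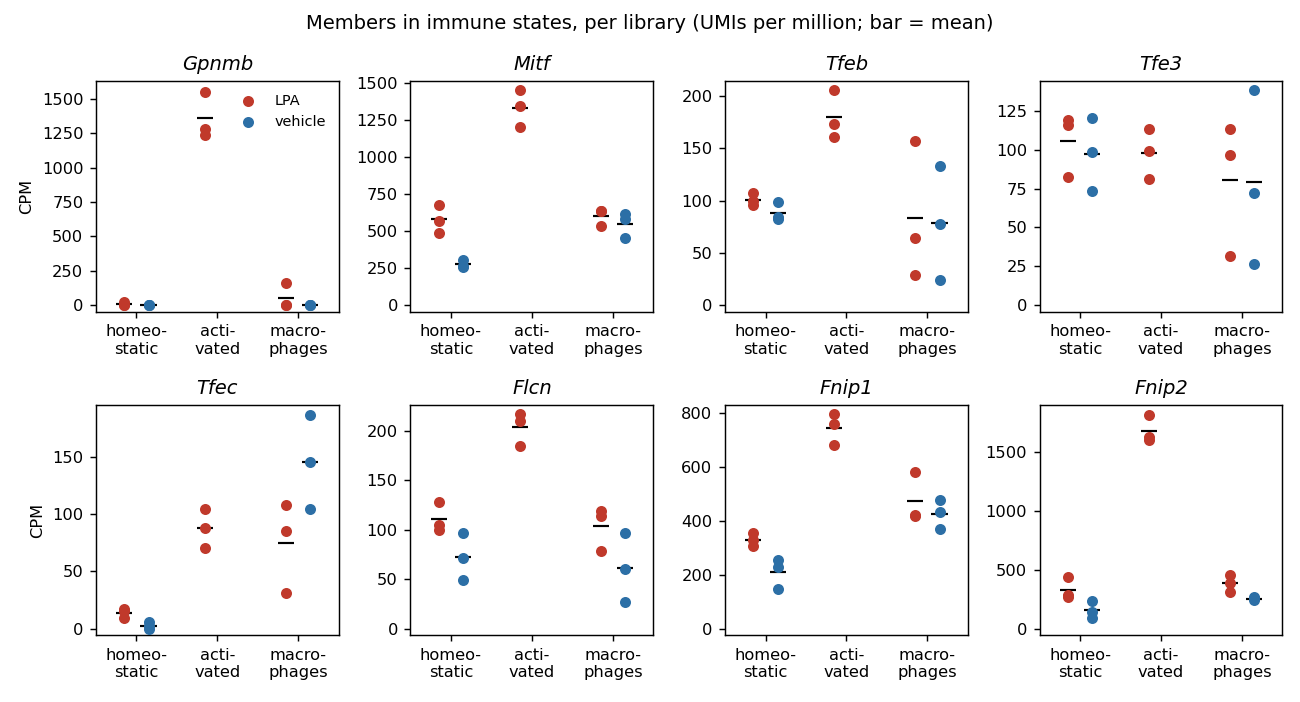
Level of each of the 8 genes in CPM (linear axis) in homeostatic microglia, activated microglia and macrophages; each point is 1 library with at least 10 nuclei of that state, red for LPA and blue for vehicle, and the bar is the mean. Gpnmb lies at 1240.5 to 1553 CPM in activated microglia and at 23.9 CPM or less in homeostatic microglia, and vehicle libraries have no points under activated because they held at most 1 such nucleus.

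Sub-clusters of the immune nuclei split the homeostatic state further. Sub-clusters 0 and 1 (662 and 504 nuclei) and sub-cluster 3 (257 nuclei) all carried homeostatic markers, but sub-cluster 3 also had Ctsl, a lysosomal protease, and Cd83, an activation marker of myeloid cells, among its 10 leading genes. Sub-cluster 3 came mostly from LPA libraries, with 61, 88 and 99 nuclei against 1, 7 and 1 in vehicle libraries. Among activated microglia, sub-cluster 2 (377 nuclei) had Lama3, Hpse, Atp6v0d2 and Spp1 among its leading genes, and sub-cluster 6 (56 nuclei) had Atf3, Plau, Itgax, Ccl3 and Csf1.

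Mitf and the FNIP genes were high in sub-cluster 3 while Gpnmb was not. Summed over libraries, Mitf was at 291 and 323 CPM in sub-clusters 0 and 1, at 1108 CPM in sub-cluster 3, at 1258 CPM in sub-cluster 2 and at 1932 CPM in sub-cluster 6. In sub-cluster 3 the LPA libraries gave 1268, 990.0 and 1168 CPM of Mitf. Gpnmb was at 22.3 CPM ± 22.0 (SD, n = 3 LPA libraries) there, from 1, 2 and 9 UMIs, against 1344 ± 191 in sub-cluster 2 and 1507 ± 255 in sub-cluster 6. Fnip2 stood between, at 674 CPM ± 85.9 in sub-cluster 3 against 1614 ± 70.5 in sub-cluster 2 and 2152 ± 446 in sub-cluster 6. Fnip1 was at 467 ± 21.7, 765 ± 67.5 and 622 ± 7.21 CPM in the same order, and Flcn at 182 ± 42.4, 213 ± 11.4 and 127 ± 85.8 CPM.

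The homeostatic differences between groups moved with this sub-cluster. With sub-cluster 3 left out, Mitf in homeostatic microglia was at 345, 312 and 333 CPM in LPA and 304, 252 and 266 CPM in vehicle libraries, a ratio of means of 1.204, and the groups still did not overlap. Fnip1 was then at 273 CPM ± 17.4 against 207 ± 58.2 (SD, n = 3 per group), with every LPA library above every vehicle library. Fnip2, at 175 CPM ± 25.6 against 150 ± 79.1, overlapped, as did Flcn, at 81.9 ± 9.69 against 72.8 ± 23.8 CPM, and Tfeb, at 89.5 ± 11.2 against 88.4 ± 7.54 CPM.

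**Figure D2:**
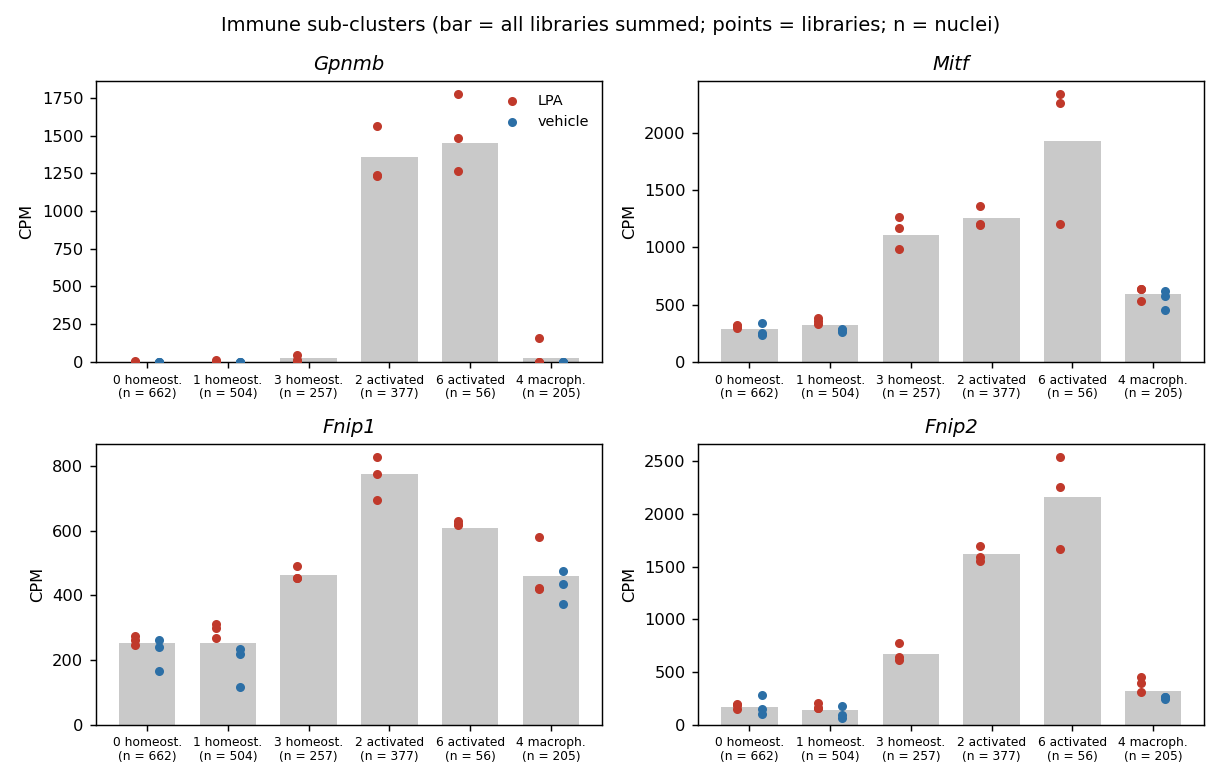
Gpnmb, Mitf, Fnip1 and Fnip2 in 6 immune sub-clusters (CPM, linear axis from 0); grey bars sum all libraries, points are libraries with at least 10 nuclei (red LPA, blue vehicle), and n is the number of nuclei. Mitf is at 1108 CPM in sub-cluster 3 and at 291 and 323 CPM in sub-clusters 0 and 1, while Gpnmb is at 1358 and 1451 CPM in the activated sub-clusters 2 and 6 and stays at 24 CPM or less in the sums of the other sub-clusters shown.

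Within activated microglia, nuclei with a Gpnmb UMI also had higher values of Fnip2, Fnip1, Tfeb and Tfe3, but not of Mitf. After thinning to 1000 UMIs, LPA 1, 2 and 3 had 46, 82 and 75 nuclei with a Gpnmb UMI and 56, 82 and 86 without. Fnip2 was at 1848, 2171 and 2080 CPM in nuclei with and at 1196, 1329 and 1430 CPM in nuclei without, higher in 3 of 3 libraries. Mitf was at 1239, 1293 and 1413 CPM in nuclei with and at 1554, 1366 and 1500 CPM in nuclei without, lower in 3 of 3 libraries. Fnip1 was at 761, 963 and 787 against 607, 707 and 733 CPM. Tfeb was at 217, 159 and 267 against 214, 110 and 151 CPM, with little difference in LPA 1. Tfe3 was at 87.0, 122 and 120 against 53.6, 36.6 and 81.4 CPM, from 10 UMIs or fewer in each value. Flcn and Tfec differed in direction between the libraries. Of the 7 genes besides Gpnmb, thinned activated nuclei of LPA libraries had a UMI from 2.36 on average, homeostatic nuclei of LPA libraries from 1.09 and those of vehicle libraries from 0.775.

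Across cell types the 8 genes had different distributions, compared here gene by gene, since UMI counts are not scaled by length and levels are not set between genes. All means are over libraries with at least 10 nuclei of a type, which is 3 for activated microglia and 6 for the others.

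Mitf was highest in activated microglia, at 1335 CPM ± 127 (SD, n = 3). Choroid plexus, the epithelium that makes cerebrospinal fluid, came next at 802 ± 29.4 (n = 6), and neither overlapped with the other or with any type behind them. Macrophages (575 ± 72.5), mature oligodendrocytes (452 ± 21.0), homeostatic microglia (427 ± 178) and precursors (344 ± 28.7) followed with overlapping ranges between neighbours. Within groups this order changed, since homeostatic microglia were at 579 CPM in LPA libraries, above mature oligodendrocytes at 464 CPM, and at 275 CPM in vehicle libraries, below precursors at 330 CPM. The other 6 types lay at 148 ± 27.3 CPM in pericytes and below, down to 51.2 ± 3.63 in neurons. Oligodendrocyte-lineage nuclei held 44.6% of all Mitf UMIs in LPA and 50.2% in vehicle libraries, and immune nuclei held 8.79% and 1.49%.

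Tfeb had its highest mean outside the immune class, at 222 CPM ± 17.2 (n = 6) in mature oligodendrocytes against 180 ± 23.1 (n = 3) in activated microglia, with ranges that overlapped. Its lowest level was 8.77 ± 0.743 CPM in neurons. Tfe3 was at 102 ± 20.0 CPM in homeostatic microglia, 97.7 ± 16.01 in activated microglia and 79.9 ± 45.0 in macrophages, which overlapped, and at 24.2 CPM or less in the other types. Tfec had its reads mainly in immune types, at 110 ± 52.6 CPM in macrophages, 87.4 ± 17.1 in activated and 8.26 ± 6.84 in homeostatic microglia, and about 1 CPM or less in every other type. In LPA libraries alone the mean of macrophages, 74.7 CPM, lay below that of activated microglia.

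Flcn was at 204 CPM ± 16.7 in activated microglia (n = 3), with homeostatic microglia (91.6 ± 27.6), macrophages (82.3 ± 34.8) and choroid plexus (78.7 ± 14.6) overlapping behind it. Fnip1 was at 747 ± 58.9 in activated microglia, 451 ± 71.9 in macrophages, 271 ± 76.4 in homeostatic microglia and 213 ± 7.42 in meningeal cells. Fnip2 was at 1681 ± 117 in activated microglia and 321 ± 84.5 in macrophages, which overlapped with homeostatic microglia at 243 ± 122. For both FNIP genes the lowest activated library lay above the highest library of every other type.

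**Figure D3:**
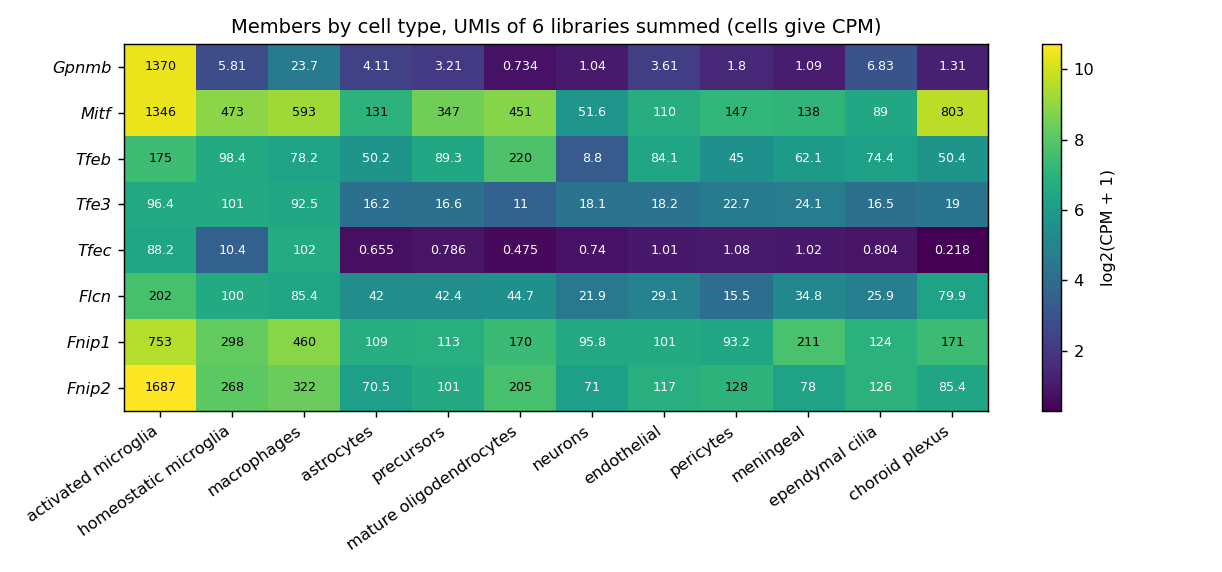
Heat map of the 8 genes (rows) in 12 cell types (columns), coloured by log2(CPM + 1), with the CPM of the 6 libraries summed printed in each cell. The activated microglia column holds the highest value for Gpnmb, Mitf, Flcn, Fnip1 and Fnip2, while Tfeb is highest in mature oligodendrocytes.

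Mitf and Tfeb also varied along the oligodendrocyte lineage, the cells that lay down myelin. In the cluster with Pdgfra and Cspg4, genes of the earliest precursors, Mitf was at 107 CPM ± 13.9 (SD, n = 6), and in the dividing cluster with Top2a at 85.3 ± 28.6. In the clusters with Neu4, Bmp4 and Gpr17, and with Enpp6 and Tcf7l2, genes of newly forming oligodendrocytes, it was at 733 ± 37.6 and 736 ± 38.7. It was lower again in the clusters with Cemip2 and Casr (386 ± 21.4), with Opalin and Tnni1 (312 ± 16.1) and with Anln and Hapln2 (479 ± 32.4). The lowest library of the 2 newly forming clusters, at 667 CPM, lay above the highest library of any other cluster, at 528 CPM.

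Tfeb was at 26.7 CPM ± 5.98 in the Pdgfra cluster and at 289 ± 23.7 and 305 ± 40.2 in the Enpp6 and Cemip2 clusters, where the ranges overlapped. Flcn was at 26.9 ± 3.27 in the Pdgfra cluster, at 67.3 ± 10.4 and 77.2 ± 8.87 in the newly forming clusters and at 35.8 to 43.0 in the 3 later ones. Fnip2 was highest in the Opalin cluster, at 286 ± 19.4 CPM, and Gpnmb had 37 UMIs or fewer in each of the 7 clusters.

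Outside the immune class the LPA and vehicle libraries were fitted in the same way, class by class. The 8 genes were chosen with this contrast in these cell types in view too. For them a call, kept or lost, only describes which side of a threshold a value lay on and is no test. In these fits a gene was called when edgeR's quasi-likelihood test gave a Benjamini-Hochberg adjusted p below 0.05 over all genes of the class and the log2 fold-change was at least 0.25 in size. Of 40 pairs of gene and class, 35 had enough counts to be fitted and 4 passed this rule, all higher in LPA libraries: Gpnmb in astrocytes, the oligodendrocyte lineage and vascular cells, and Fnip2 in astrocytes. Of all genes tested, 8.14% were called in astrocytes, 11.8% in the oligodendrocyte lineage, 8.37% in vascular cells, 3.85% in ependymal cells with choroid plexus and 0.0531% in neurons, and nothing is read from the count of 4.

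Gpnmb in astrocytes, the cells that regulate the extracellular milieu of the brain, gave 23, 59 and 44 UMIs in LPA 1, 2 and 3 and 3, 6 and 3 in vehicle 1, 2 and 3. The log2 fold-change was 2.98 (edgeR, SE 0.41), though the level of LPA nuclei was 6.61 CPM, a small part of that in activated microglia. Most of these UMIs, 17, 43 and 28 in LPA and 3, 5 and 1 in vehicle libraries, were in the astrocyte cluster led by Gfap and Myoc, which held 440, 548 and 444 nuclei in LPA and 135, 285 and 247 in vehicle libraries. The clusters thus took different shares of the astrocytes in the 2 groups. Within this cluster Gpnmb was at 10.8, 24.4 and 18.6 against 9.05, 7.62 and 2.07 CPM, a ratio of means of 2.87, against 8.06 over all astrocytes. In the other astrocytes 6, 16 and 16 UMIs stood against 0, 1 and 2. Their mean levels were 2.71 and 0.211 CPM, a ratio of 12.8 that rests on these few vehicle UMIs. In the oligodendrocyte lineage Gpnmb gave 19, 27 and 21 against 8, 3 and 9 UMIs, a log2 fold-change of 1.75 (SE 0.38). The Pdgfra cluster gave 28 of these LPA UMIs and 9 of the vehicle UMIs. Within that cluster Gpnmb was at 6.30, 3.69 and 6.12 against 2.13, 2.10 and 4.63 CPM, where the groups overlapped. In the Opalin and Enpp6 clusters the groups did not overlap, on 10 and 5 UMIs in all. Vascular nuclei had 11, 15 and 16 against 0, 2 and 0 UMIs, a log2 fold-change of 4.65 (SE 0.61). In all 3 classes every LPA library was above every vehicle library in UMIs. The astrocyte call held in every alternative, though sums per cell type could not change it, since the astrocyte type and class are the same sum. The oligodendrocyte and vascular calls were absent in DESeq2, where fewer pairs were tested. In sums per cell type Gpnmb fell below the count filter in precursors, mature oligodendrocytes, endothelial cells, pericytes and meningeal cells, so no fit was made there. The vascular call was also absent at Leiden resolution 2 and with doublets left out.

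Immune transcripts moved with these low Gpnmb levels in part. The 14 immune markers, all detected in every library of these 3 classes, summed to 112 to 138 CPM in LPA and 84.9 to 131 CPM in vehicle astrocytes, to 82.8 to 104 against 64.2 to 90.9 CPM in the oligodendrocyte lineage, and to 339 to 433 against 222 to 269 CPM in vascular nuclei. The 12 activated markers summed to 260 to 277 against 271 to 311 CPM in astrocytes, to 259 to 267 against 225 to 239 in the oligodendrocyte lineage and to 229 to 242 against 250 to 272 in vascular nuclei. Per 100 UMIs of these 12 markers, LPA nuclei held 46.9 Gpnmb UMIs in activated microglia, 2.45 in astrocytes, 0.821 in the oligodendrocyte lineage and 1.94 in vascular cells. In these 3 classes the 12 markers were read at like levels in vehicle libraries, which held 1 activated nucleus in all. The ratios outside activated microglia therefore do not measure RNA carried over from that state. The part of free RNA, or of immune nuclei caught with others, in the Gpnmb calls was not tested.

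Neurons gave 14, 31 and 20 against 5, 7 and 10 Gpnmb UMIs, a log2 fold-change of 1.78 (SE 0.40) that was not called. Ependymal nuclei gave 9, 5 and 24 against 1, 0 and 1 UMIs and fell below the count filter.

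Fnip2 in astrocytes stood at 75.6, 78.5 and 74.5 CPM in LPA and 62.3, 62.9 and 63.4 CPM in vehicle libraries, a log2 fold-change of 0.29 (SE 0.07). The groups did not overlap, but the call was lost without LPA 2, vehicle 2 or vehicle 3 and in DESeq2. Mitf in astrocytes had a log2 fold-change of 0.21 (SE 0.07), below the size needed for a call. In the oligodendrocyte lineage, which holds the largest share of Mitf reads, the log2 fold-change of Mitf was 0.01 (SE 0.06) and that of Tfeb -0.02 (SE 0.06), neither of them called. Tfec had counts enough only in neurons, where its log2 fold-change was -0.06 (SE 0.34).

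**Figure D4:**
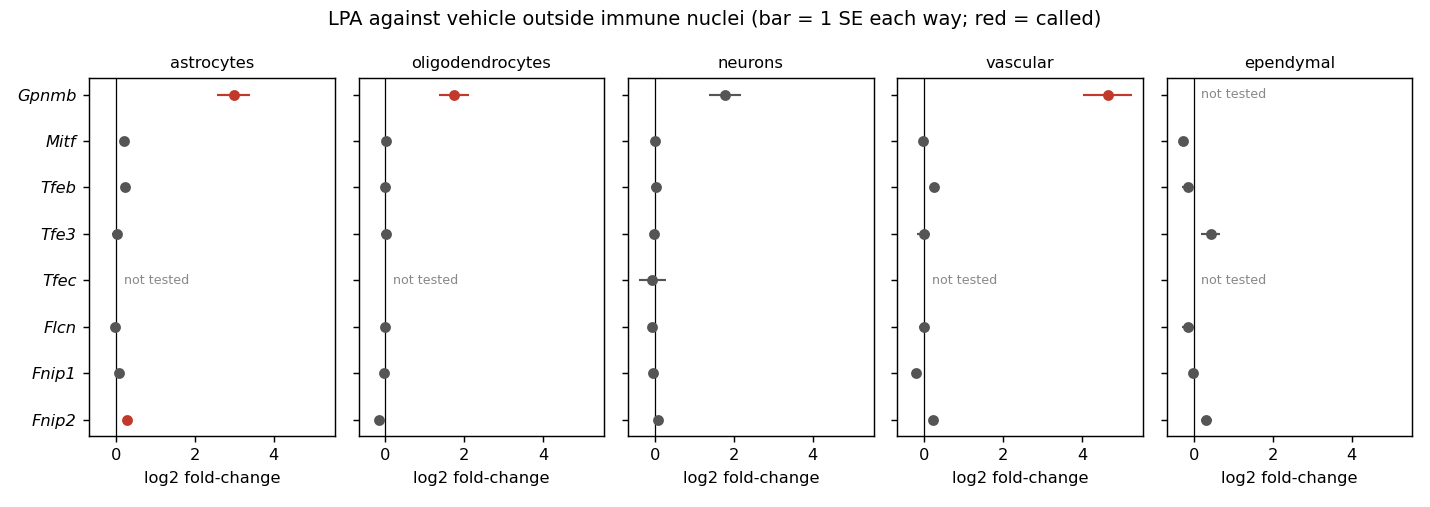
Log2 fold-change of LPA against vehicle libraries for the 8 genes in 5 classes outside the immune nuclei; points are edgeR estimates, bars span 1 SE each way, red marks called genes, and genes below the count filter read "not tested". Gpnmb lies at 2.98, 1.75, 1.78 and 4.65 in astrocytes, oligodendrocyte lineage, neurons and vascular cells, whereas all other points lie within 0.5 of 0.

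Genes that these factors and regulators are known to act with were then counted in immune nuclei, on lists of pathway genes. The lists, like the 8 genes, were drawn up with earlier results of these data known, so their calls are no independent evidence of a direction. Of 50 genes of lysosomes and autophagy, many of them known targets of MiT/TFE factors, 46 were tested and 10 rose in LPA libraries, while none fell (1 was lower at an unadjusted edgeR p below 0.05, and none fell in DESeq2). Of all 10257 genes tested in immune nuclei 5.69% were called, 3.37% higher and 2.32% lower, and the median log2 fold-change was 0.47 over the list against -0.01 over all genes.

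Ctsb, which encodes the lysosomal protease cathepsin B, rose from 319, 241 and 272 CPM in vehicle to 595, 713 and 845 CPM in LPA libraries (log2 fold-change 1.41, SE 0.15, edgeR adjusted p = 6.79e-06). Atp6v1a, a subunit of the proton pump that acidifies lysosomes, rose with a log2 fold-change of 1.10 (SE 0.17, edgeR adjusted p = 0.000538), from 75.04, 78.0 and 63.2 CPM to 134, 175 and 161 CPM. Clcn7, a chloride-proton exchanger of the lysosomal membrane, rose with 1.32 (SE 0.22, edgeR adjusted p = 0.000827), from 56.3, 31.8 and 51.3 CPM to 104, 111 and 98.5 CPM. In each of these 3 genes the groups did not overlap.

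Atp6v0d2, a pump subunit typical of osteoclasts and macrophages, rose with a log2 fold-change of 3.33 (SE 0.57, edgeR adjusted p = 0.00102), from 0, 0 and 63.2 CPM to 101, 172 and 139 CPM. All 16 of its vehicle UMIs came from the single activated nucleus of vehicle 3. The other called genes included the pump subunits Atp6v0d1 and Atp6v1b2 and the lysosomal enzymes Ctsd, Ctsa and Scpep1, with log2 fold-changes of 0.61 to 0.90.

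The Rag and mTORC1 list, which holds the machinery on which folliculin acts, moved little. Of 23 genes 21 were tested, 1 rose and none fell (1 was lower at an unadjusted p below 0.05, and none fell in DESeq2), against the same 5.69% of all genes, and the median log2 fold-change was -0.00. The gene that rose was Rragc, which encodes RagC, the GTPase on which folliculin acts, from 30.02, 57.8 and 39.5 CPM to 84.7, 103 and 129 CPM (log2 fold-change 1.18, SE 0.24, edgeR adjusted p = 0.00530).

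**Figure D5:**
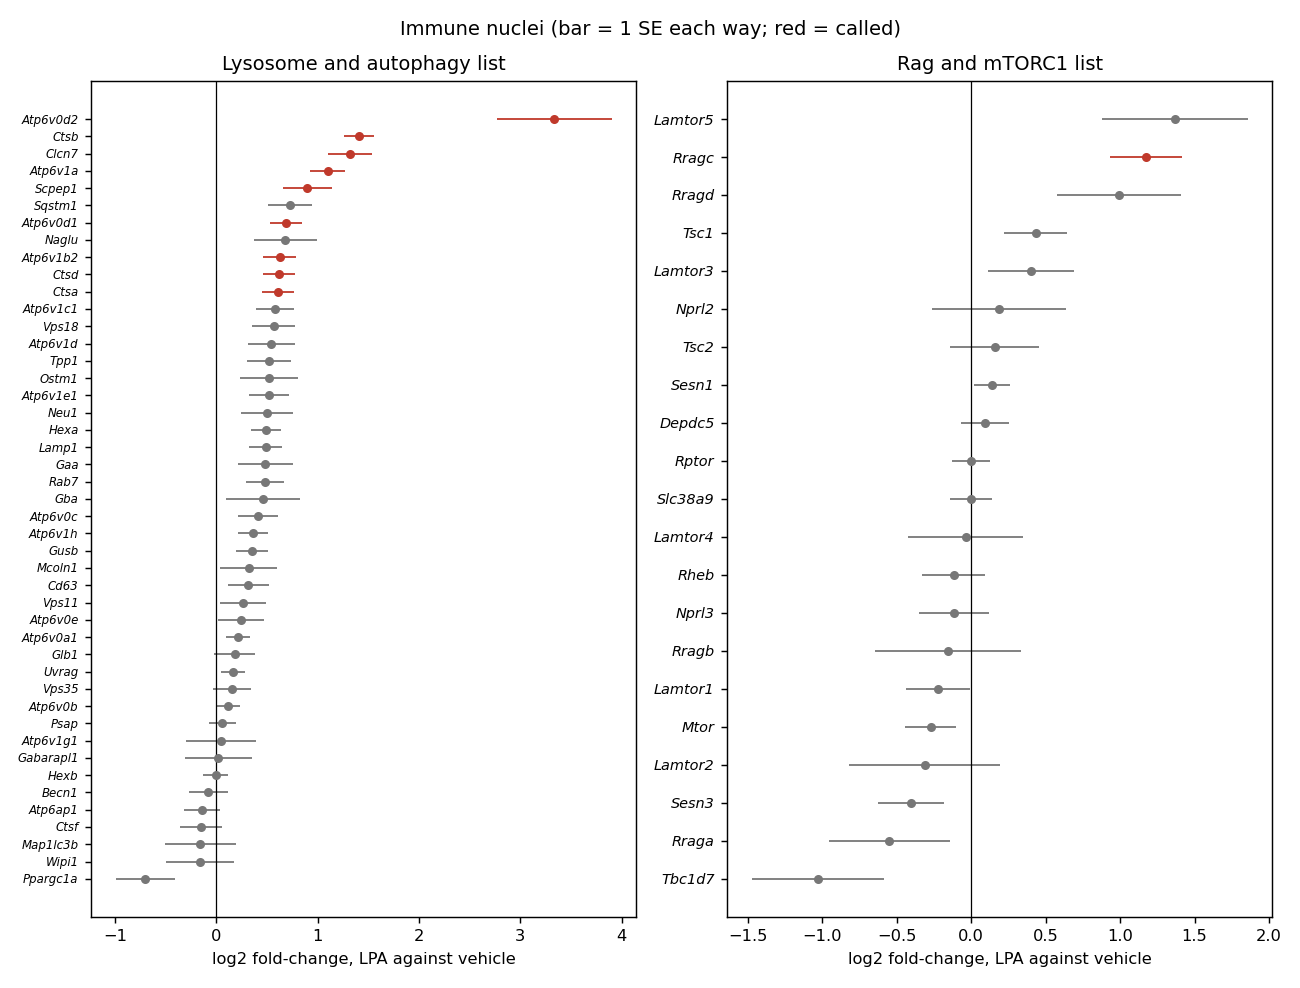
Log2 fold-change of LPA against vehicle immune nuclei for tested genes of the lysosome and autophagy list (left, 45 of the 46 genes) and of the Rag and mTORC1 list (right, 21 genes), sorted by value; points are edgeR estimates, bars span 1 SE each way and red marks called genes. On the left 9 of the 10 called genes are drawn, all higher in LPA, and on the right only Rragc is.

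The share of activated microglia differed between groups, and the list was also read within states. In homeostatic microglia alone, where 1.65% of all 7834 genes tested were called, Ctsb was the 1 called gene of 42 tested on the lysosome and autophagy list (log2 fold-change 1.27, SE 0.16, edgeR adjusted p = 1.78e-08). Sub-cluster 3 held mostly LPA nuclei, and without sub-cluster 3, where 0.398% of 6528 genes were called, Ctsb was not called (0.36, SE 0.17, edgeR adjusted p = 0.596). Its levels in homeostatic microglia were 407, 442 and 625 against 265, 181 and 172 CPM, and without sub-cluster 3 they were 260.0, 249.97 and 263 against 268, 177 and 166 CPM, where the groups overlapped. None of 13 genes was called on the Rag and mTORC1 list in homeostatic microglia (edgeR, 1 at an unadjusted p below 0.05). Within the LPA libraries, 36 of 46 genes of the lysosome and autophagy list (78.3%) were higher in activated than in homeostatic microglia in all 3 libraries. This held for 7 of 21 genes of the Rag and mTORC1 list (33.3%), for 20.2% of all genes tested in immune nuclei, and for 7 of the 8 genes followed here. In the other direction, 6 of the 21 Rag and mTORC1 genes (28.6%) and 2 of the 46 lysosome and autophagy genes (4.35%) were lower in activated microglia in all 3 libraries, against 24.98% of all genes tested.

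Outside the immune class the calls on the lists are read against the share of all genes called. In astrocytes, where that share was 8.14%, 1 of 48 lysosome and autophagy genes was called higher (Scpep1, 0.54, SE 0.13) and 6 were called lower. Among these 6 were the pump subunits Atp6v1g1 (-0.55, SE 0.12), Atp6v0e and Atp6v0c, and the membrane proteins Cd63 and Lamp1. At an unadjusted edgeR p below 0.05, 1 of the 48 was higher and 10 were lower. In the oligodendrocyte lineage 3 of 48 were called, all lower (Ctsk, Wipi1 and Atp6v1g1), against 11.8% of all genes, and in vascular cells 1 of 47 (Ctsk, lower) against 8.37%. In neurons and ependymal cells none was called by edgeR (at an unadjusted p below 0.05, 2 higher and 2 lower in neurons, 1 higher and 4 lower in ependymal cells). On the Rag and mTORC1 list, Rragd, which encodes RagD, was called higher in the oligodendrocyte lineage, with a log2 fold-change of 0.64 (SE 0.18, edgeR adjusted p = 0.0253). Lamtor2, a subunit of the Ragulator complex that anchors Rags to lysosomes, was called lower there (-0.42, SE 0.12) and in astrocytes (-0.51, SE 0.15). In vascular cells 2 genes of sestrins, proteins that bind the GATOR2 complex upstream of the Rags, were called, Sesn1 lower (-0.30, SE 0.08, edgeR adjusted p = 0.0321) and Sesn3 higher (0.34, SE 0.09, edgeR adjusted p = 0.0326). In all, 1 of 23 genes of this list was called in astrocytes and 2 of 23 in each of the oligodendrocyte lineage and vascular cells, beside the same shares of all genes.

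Since Mitf and Gpnmb are also genes of pigment cells, melanocyte markers were counted. In immune nuclei of all 6 libraries Pmel had 3 UMIs, Tyr 1, Dct 5 and Oca2 6, while Mlana, Tyrp1 and Slc45a2 had 0. In activated microglia the only read was 1 from Oca2. The choroid plexus, second to activated microglia in Mitf, had 1108 Oca2 UMIs (242 CPM) but 5 from Pmel, 1 from Mlana, 3 from Tyr, 14 from Dct and 0 from Tyrp1 and Slc45a2.

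Across 75 sums of nuclei per library and cell type, the genes whose log2(CPM + 1) was most like that of Gpnmb were Atp6v0d2 (Pearson's r = 0.86), Gm13391 (0.81), Hpse (0.80), Itgax (0.75) and Tnfaip2 (0.73), among 18594 genes. Those most like Mitf were Fkbp15 (0.79), Flcn (0.79), Ap3b1 (0.77), Rffl (0.77) and Snap23 (0.76). Between the genes followed here, Gpnmb correlated with Fnip2 at 0.65 and with Mitf at 0.33. Sums from 1 library share its preparation and depth, so these values are descriptions.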

How the data were processed

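The authors sorted NeuN-negative nuclei, built 10x Genomics 3′ v3 libraries and, per the labels and the submitters' processing notes, used Cell Ranger 4.0.0 and mm10. The deposited matrices hold raw UMI counts per gene and barcode. A nucleus was kept if 300 genes or more were detected and mitochondrial UMIs did not exceed 1%. Its UMI number also had to lie no more than 1.5 interquartile ranges above the upper quartile of its library (library totals 48852970 to 65688644 UMIs). Doublets called by Scrublet (12.7 to 15.4% of nuclei) were kept in the sums, and leaving them out was an alternative. Nuclei were clustered (scanpy 1.11.5; 3000 variable genes without the 8 genes and the lists, 40 components, Leiden resolution 1; immune nuclei again with 2000 genes and 20 components) and named by marker lists, so names are rebuilt here. Counts were summed per library and class and fitted with edgeR 4.0.16 (TMM, filterByExpr, quasi-likelihood test) in R 4.3.3, and SE is the log2 fold-change over the root of F. CPM uses each sum's own total. Scripts were tested on simulated data. The values of 1 list gene are not reported here, though it is in the counts.

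The 8 genes and the lists were chosen with earlier results of these data known, and fits of the 8 genes are given without p-values. Named were all 8 genes, the 4 called list genes of lowest p per direction, and the 5 genes most like Gpnmb and Mitf over sums of at least 10 nuclei with at least 100 UMIs in all. List genes outside immune nuclei and TCATATGA were named after their values were seen. The labels give replicate numbers only, while the study describes the points of its single-nucleus plots as individual mice. Each group held libraries of both sexes, so the libraries of a group did not all come from the same animal. The p-values measure the spread between libraries, which holds animal and technical differences together. Alternatives were DESeq2 1.42.0, no TMM factors, no count filter, no mitochondrial limit, no doublets, Leiden resolution 2, the replicate number as a block, sex as a term, each library left out, microglia without macrophages, thinning, and, chosen after seeing the data, sums per cell type, no shared barcodes, and homeostatic microglia alone and without sub-cluster 3.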

Additional observations from a re-analysis of the deposited data

Results flagged for a closer look

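Gpnmb was also read in nuclei of clusters left without a class, which entered no comparison of the report. Its mean level in the LPA libraries was 18.5 CPM, from 106, 152 and 146 UMIs (12.99, 22.2 and 20.4 CPM), above the 4, 10 and 6 UMIs (0.636, 0.964 and 0.726 CPM) of the vehicle libraries. A single cluster in which immune markers were mixed with those of other types gave 83, 124 and 122 of the LPA UMIs and 0, 1 and 0 of the vehicle UMIs.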

How the results depend on the processing

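Of the 8 genes, 6 reached a log2 fold-change of 0.25 in immune nuclei, Gpnmb by its lower limit against 3 counts. Under the other alternatives on all immune nuclei or microglia 6 to 8 did, and 6 to 8 when each library was left out. In homeostatic microglia alone 6 did, Tfe3 (0.251) in place of Tfeb, with Gpnmb again by its limit, and without sub-cluster 3 only 2 did, Mitf and Fnip1, while Tfeb reversed to -0.027. The 4 calls outside the immune class became 1 in DESeq2 (Gpnmb in astrocytes, of 31 tested) and 3 to 5 with a library left out. With sums per cell type 2 of 56 were called (Gpnmb and Fnip2 in astrocytes, whose sum stayed the same). Gpnmb was not tested there in the types of the oligodendrocyte lineage and of vascular cells. With Leiden resolution 2 there were 6, among them Mitf (-0.53) and Fnip1 (-0.32) lower in vascular cells. The 10 lysosome and autophagy calls became 5 in DESeq2, 17 without the count filter (16 higher, 1 lower), 1 in homeostatic microglia alone, 0 without sub-cluster 3 (of 37, 1 higher and 1 lower at an unadjusted edgeR p below 0.05), and 4 (without vehicle 2) to 12 (without LPA 1) with a library left out, with 5 without LPA 3. The single Rag and mTORC1 call stayed at 1 with each library left out, and was 0 in homeostatic microglia alone and 0 without sub-cluster 3. Mean Gpnmb in activated microglia was 1359.5 CPM, and 1184 after thinning. The log2 fold-change of Tfec in immune nuclei reversed to -0.01 without LPA 2 and to -0.32 without vehicle 2, and reached 0.50 without vehicle 1. The cause was not tested for any of these. Of 664 single values recomputed, 631 counted as unchanged. In immune nuclei that meant the same direction and a shift smaller than the replicate spread. In the other classes it meant the same side of the call rule, and a change of sign between uncalled values counted as unchanged.

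Deviations of same-numbered libraries correlated at 0.06, 0.09 and -0.02 in immune nuclei and at 0.11, 0.20 and -0.14 in the oligodendrocyte lineage. Pairs 1 and 2 were of the same sex and pair 3 was not. LPA 1 with vehicle 3, also of the same sex, gave 0.21 in the oligodendrocyte lineage. With 3 libraries per group and sex mixed in, these values neither show nor exclude a pairing by number. With the replicate block, 6 genes, 4 calls outside the immune class, 9 lysosome and autophagy calls and 1 Rag and mTORC1 call were found. Depth limits Tfec and Gpnmb, with 40 and 0 UMIs in all vehicle immune nuclei.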
